A study of Mus musculus with 4 samples.

Results

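Neurotrophins are secreted growth factors that keep neurons alive and shape their synapses, and the genes described here are Bdnf, Ntrk2 and Ntrk3, 3 of a set of 5 that also lists Ntf3 and Ngfr. Members were the probe sets (groups of short oligonucleotides that read 1 transcript) that the platform annotation ties to exactly 1 gene symbol from that set, which gave 3 of 12422 probe sets, 1 per gene. Ntf3 and Ngfr were not analysed here. The rule itself uses gene names, although the set was proposed with earlier results of these data known. The study measured total RNA from 4 samples of mouse hippocampus, each on 1 Affymetrix Murine Genome array. The labels put all of them in 1 group, with a code for each sample that is not explained in the sources used here, and give no strain, sex, age, allele or treatment, and do not say whether they came from separate animals or were pooled. Samples are called 1 to 4, numbers that serve as names and have no order. The study therefore holds no contrast between conditions, and the question asked here is how steady the signals of these genes were from sample to sample. With 1 array per sample, the spread between samples includes technical error, and p-values measure that spread only.

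As background, brain-derived neurotrophic factor (Bdnf) is made mainly by excitatory neurons, is induced by neuronal activity, and binds the receptor tyrosine kinase TrkB, the product of Ntrk2. Neurotrophin-3, the product of Ntf3, binds TrkC, the product of Ntrk3, and all neurotrophins can bind the p75 receptor encoded by Ngfr. Trk receptors recruit adaptor proteins and signal through the Ras-ERK, PI3K-Akt and phospholipase C pathways, whereas p75 has no kinase domain and signals through proteins such as Traf6 and Rhoa. Ntrk2 and Ntrk3 each give rise to transcripts for full-length receptors and for shortened receptors without the kinase. In the hippocampus Bdnf is abundant in the dentate gyrus and CA3, and TrkB is known from both neurons and astrocytes.

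On mouse assembly GRCm38.p6, RefSeq places Bdnf on chromosome 2 from 109674700 to 109727043, Ntrk2 on chromosome 13 from 58806472 to 59133970, and Ntrk3 on chromosome 7 from 78179986 to 78581034. Bdnf has several start sites, of which the RefSeq promoter table holds 7, while it holds 1 for Ntrk2. It gave 0 starts for Ntrk3, so no Ntrk3 window was searched. Which transcripts each probe set reads is not given in the sources used here, so a Bdnf signal cannot be assigned to 1 start site. The 250 bases before each start were searched on both strands for the cyclic AMP response element half-site TGACG. This is the core bound by the factor CREB. The same bases were also searched for TGANTCA, where N is any base. That pattern is looser than the element bound by Fos and Jun dimers, which has C or G at this place. These motifs do not overlap in the windows shown. The half-site was present before 1 of 7 Bdnf starts and before 17.8% of 32851 promoters of the same length. TGANTCA was present before 1 of 7 Bdnf starts and before 6.75% of these promoters. The window before the Ntrk2 start held neither. The full palindrome TGACGTCA, found in 1.55% of promoters, was absent from every Bdnf and Ntrk2 window. Both Bdnf windows that held a motif are shown 5′ to 3′ on the plus strand, because activity-induced genes are set beside Bdnf below; capitals mark the motif. Start 2 has its window at chr2:109676782-109677031, with the TGANTCA match starting 152 bases before the start site. The matched bases are TGAATCA, with A at the centre in place of C or G. Start 3 has its window at chr2:109692186-109692435, with the half-site, read on the other strand, 35 bases before the start site. A match describes the letters of the window and was not tested as a binding site.
Bdnf, start 2: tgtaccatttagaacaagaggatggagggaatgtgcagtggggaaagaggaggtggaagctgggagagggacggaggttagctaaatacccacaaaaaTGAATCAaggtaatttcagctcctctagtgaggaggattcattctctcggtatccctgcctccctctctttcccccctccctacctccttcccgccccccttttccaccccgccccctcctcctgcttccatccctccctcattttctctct
Bdnf, start 3: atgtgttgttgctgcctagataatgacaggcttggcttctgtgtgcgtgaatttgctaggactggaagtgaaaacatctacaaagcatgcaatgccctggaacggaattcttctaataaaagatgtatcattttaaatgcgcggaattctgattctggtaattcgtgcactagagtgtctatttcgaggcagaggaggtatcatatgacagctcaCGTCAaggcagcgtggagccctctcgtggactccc

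Bdnf gave a clear signal in every sample. Its probe set (Entrez gene 12064) gave 622 units in sample 1, 913 in sample 2, 870 in sample 3 and 1156 in sample 4 (quantile normalized array units, which are linear). Sample 1 was the lowest and sample 4 the highest, with samples 2 and 3 close together between them. The mean was 890.2 ± 219 units (SD, n = 4), a coefficient of variation of 24.6%, and this mean lay at the 91.9th percentile of all probe sets. The brightness of a probe set also depends on its oligonucleotides, so this rank does not compare Bdnf with other genes in RNA amount.

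The span of Bdnf from sample 1 to sample 4 was 1.86-fold. Analysis was limited to the brighter 6210 probe sets, those whose mean exceeded that of the median probe set, and among these 19.7% spanned at least as much. Bdnf in sample 1 fell 1.56-fold short of the mean of the other 3 samples (log2 difference -0.64), and 4.15% of analysed probe sets lay as far or farther below in that sample. In sample 4 it was 0.55 log2 units higher, a 1.46-fold difference, and 9.60% of analysed probe sets lay as far or farther above. Samples 2 and 3 differed by 1.05-fold. The span was 1.33-fold without sample 1 and 1.47-fold without sample 4.

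The SD of Bdnf on the log2 scale was 0.37, which is 1.88 times the 0.20 that the trend over all analysed probe sets gives at its signal. A variance test built on limma's intensity trend asks whether a probe set varies more than others of like signal. Bdnf did not pass it (one-sided F test, adjusted p = 0.939 over all analysed probe sets), and 10.9% of them had an unadjusted p as low. Across 10 alternative settings its adjusted p ranged from 0.886 to 1. The test passed 0 of 2 analysed members, and 0 of them had an unadjusted p under 0.05. Over all analysed probe sets the test passed 0%, and 5.62% had an unadjusted p under 0.05. With 2 members tested, their count can show little against this background.

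**Figure D1:**
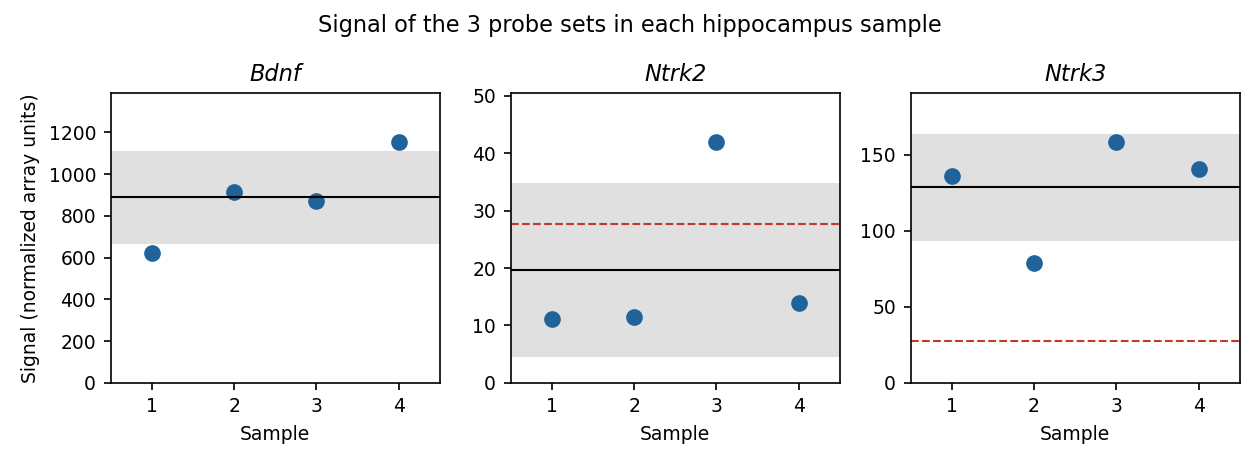
Signal in normalized array units (vertical axis, from 0, separate scale per gene) of the probe sets for Bdnf, Ntrk2 and Ntrk3 in samples 1 to 4 (points), with the mean (line) and 1 SD either side (grey band). The dashed line, drawn for Ntrk2 and Ntrk3 only, is the floor of 27.7 units. Bdnf runs from 622 to 1156 units, Ntrk2 is above the floor in sample 3 alone, and Ntrk3 is lowest in sample 2.

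The array of sample 4 was the least like the others, with correlations of 0.907 to 0.925 over analysed probe sets, against 0.941 to 0.949 among samples 1 to 3. Genes that neuronal activity induces were also high in this sample. Of 10 such genes listed, 8 had a named probe set, and in sample 4 each of these 8 exceeded the average of the remaining samples, Egr1 by only 0.013 log2 units. Over all analysed probe sets, 52.2% did so in sample 4. In sample 3, 1 of 8 activity-induced genes was above the others, against 51.1% of all analysed probe sets. The summed signal of the list was 2536, 2130, 1772 and 3315 units in samples 1 to 4. The highest sum was thus in the sample with the highest Bdnf, but the lowest sum was in sample 3, where Bdnf was 0.0023 log2 units above the average of the others. The transcription factor gene Fos gave 157, 55.5, 67.7 and 354 units, and its partner Junb gave 293, 189, 164 and 573 units. In sample 1, where Bdnf was lowest, 5 of these 8 genes exceeded the mean of the others, against 51.4% of all analysed probe sets. The median log2 deviation of the 8 genes was 0.18 in sample 1 and 0.70 in sample 4. Sample 4 also had the highest ratio of 3′ to 5′ signal, which rises with less complete RNA or cDNA. That ratio was 1.84, 1.64, 1.51 and 2.03 for Actb in samples 1 to 4, and 0.887, 0.864, 0.981 and 1.15 for Gapdh. The part of activity-induced expression or RNA quality in the Bdnf signal was not tested.

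**Figure D2:**
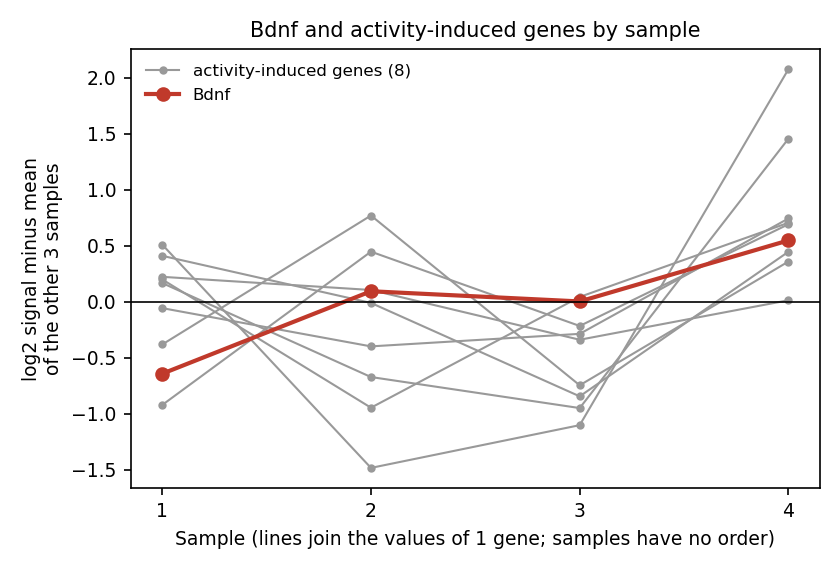
The log2 signal of each gene minus the mean of the other 3 samples (vertical axis, log2 units) by sample, for Bdnf (red) and the 8 measured activity-induced genes (grey); lines join the values of 1 gene. All of them lie above 0 in sample 4, while in sample 1 Bdnf lies at -0.64 and the median of the 8 genes at 0.18.

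Ntrk2, the gene of the Bdnf receptor TrkB, gave a signal mostly below the floor through its only probe set (Entrez gene 18212). It gave 11.2 units in sample 1, 11.4 in sample 2, 42.0 in sample 3 and 13.9 in sample 4. Sample 3 alone exceeded the floor of 27.7 units, the 25th percentile of normalized signals, below which values have no order. The mean of 19.6 ± 15.0 units (SD, n = 4) lay at the 16.9th percentile of all probe sets, too low for the probe set to be among those analysed. Sample 3 was at least 1.52-fold above the others, and without sample 3 no sample exceeded the floor. With no filter on dim probe sets, Ntrk2 had an unadjusted p of 0.0193 and an adjusted p of 0.515 in the variance test. There, 3 of its 4 values sat at the floor. This low signal belongs to the probe set and gives no measure of how much Ntrk2 RNA the tissue held, since the transcript form it reads is unknown here and detection calls were not used.

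Genes of tissues outside brain give a reference for dim signals. Of 24 listed, such as the liver gene Alb and the pancreatic gene Ins2, 20 had a named probe set, and their mean signals ran from 8.19 units to 530 units for Tnp1, with a median of 34.4. The Ntrk2 mean of 19.6 units was below 13 of these 20. The Ntrk3 mean was at or above 17 of the 20. Since probe sets differ in brightness, this range describes dim signals on these arrays and is no limit of detection.

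Ntrk3, the gene of the neurotrophin-3 receptor TrkC, gave a modest signal that was steady in all samples except sample 2. Its probe set (Entrez gene 18213) gave 136 units in sample 1, 79.1 in sample 2, 159 in sample 3 and 141 in sample 4. Samples 1, 3 and 4 lay within 1.17-fold of one another when sample 2 was left out. The mean was 129 ± 34.5 units (SD, n = 4), a coefficient of variation of 26.8%, at the 54.8th percentile of all probe sets.

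For Ntrk3, sample 2 fell 1.83-fold short of the average of the others (log2 difference -0.88), and 1.61% of analysed probe sets lay as far or farther below in that sample. The span from sample 2 to sample 3 was 2.01-fold, and 15.0% of analysed probe sets spanned at least as much. The log2 SD of 0.45 was 1.15 times the 0.39 of the trend at that signal, where single probe sets vary more than at the signal of Bdnf. Ntrk3 did not pass the variance test (limma, one-sided F test, adjusted p = 0.994). Its adjusted p in limma ranged from 0.968 to 1 over 10 alternatives.

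A span of at least 2-fold was reached by 1 of the 2 analysed members, Ntrk3, against 15.2% of all analysed probe sets. Its 2.01-fold span stood at this limit and was 1.91-fold in the deposited signals without further normalization, 1.79-fold without sample 3 and 1.97-fold without sample 4. With no floor (log2 of signal plus 16), Ntrk3 spanned 1.84-fold and the dim Ntrk2 2.14-fold. The members did not share an order of samples. Bdnf was lowest in sample 1, and Ntrk3 was lowest in sample 2, where Bdnf was 1.07-fold above the mean of the others.

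**Figure D3:**
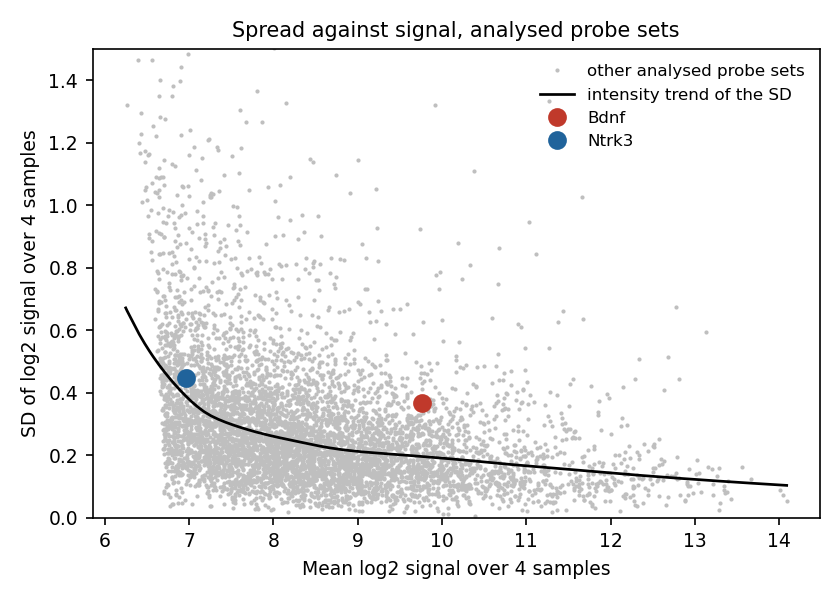
SD of the log2 signal over 4 samples (vertical axis) against mean log2 signal (horizontal axis) for the 6210 analysed probe sets (grey points), with the intensity trend (line), Bdnf (red) and Ntrk3 (blue); 23 probe sets above 1.5 are beyond the plot. Bdnf lies at 0.37 over a trend of 0.20, and Ntrk3 at 0.45 over a trend of 0.39, both within the cloud of other probe sets.

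The genes whose sample pattern was most like that of a member were found by the root mean square difference of mean-centred log2 signals over the 4 samples, among 5615 analysed probe sets of other named genes. For Bdnf these were Cul2, a scaffold of a ubiquitin ligase, at 0.041 log2 units, Zfp322a at 0.046 and Ext1, a heparan sulfate polymerase, at 0.055. Cul2 gave 263, 398, 350 and 487 units in samples 1 to 4. For Ntrk3 these were the cell cycle inhibitor Cdkn2c at 0.061 log2 units, St6galnac2, a sialyltransferase, at 0.072 and Nhsl2 at 0.072. Cdkn2c gave 175, 97.1, 184 and 182 units. With 4 samples many genes share a pattern by this measure, since 413 probe sets lay within 0.2 log2 units of Bdnf and 129 within 0.2 of Ntrk3.

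Other genes of neurotrophin signalling had a median span close to that of all analysed probe sets. Of 95 symbols listed, older names included, 57 genes had a named probe set and 38 of these were analysed, each through its brightest probe set. The variance test passed 0 of the 38 (limma, smallest adjusted p = 0.636, range 0.448 to 0.931 over 11 alternatives), as it passed 0% of all analysed probe sets. An unadjusted p under 0.05 was found for 3 of 38 (7.89%), Rhoa, Irs2 and Mapk9, against 5.62% of all. The median span was 1.42-fold, against 1.45-fold for all analysed probe sets. A span of at least 2-fold was found for 9 of 38 (23.7%), against 15.2% of all analysed probe sets. Without sample 4 this count was 2, while the count over all analysed probe sets went from 944 to 457. Summarising each gene by the median of its probe sets gave 5.

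Among ligands and receptors beside the members, 1 of 9 listed symbols had a named probe set. This was Sorl1, a sorting receptor of the sortilin family, with 61.3, 110.1, 110.6 and 127 units in samples 1 to 4, just too dim for analysis. Sorl1 was lowest in sample 1, as Bdnf was.

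Among genes that cleave proneurotrophins or act on their proteases, 3 of 6 analysed spanned at least 2-fold, Pcsk6, Pcsk7 and Plat, against 15.2% of all analysed probe sets. The same share is the background for the branches that follow, and with so few genes a branch its count was not tested against it. The convertase Furin was steady, with 390.4 ± 39.3 units (SD, n = 4). Pcsk7, a related convertase, had the largest span and gave 118, 127, 138 and 58.1 units, low in sample 4. Plat, the tissue plasminogen activator, whose product plasmin can cleave proBDNF, gave 444, 302, 445 and 622 units and was highest in sample 4.

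Of 8 analysed Trk adaptor genes, Irs2 and Gab1 spanned at least 2-fold. Irs2, a docking protein best known from insulin signalling, gave 68.2, 148, 301 and 199 units, a 4.41-fold span with an unadjusted p of 0.0236 and an adjusted p of 0.767 (limma). It was lowest in sample 1 and highest in sample 3. Plcg1, the phospholipase that Trk receptors activate, spanned 1.18-fold.

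Of 12 analysed genes of the Ras, ERK and PI3K branch, 1 spanned at least 2-fold, the PI3K regulatory subunit Pik3r2, with 403, 246, 347 and 558 units. Map2k1, the kinase that activates ERK, spanned 1.17-fold, and Akt1 spanned 1.31-fold.

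In the p75 branch, Rhoa, Ikbkb and Mapk9 were the 3 of 12 analysed genes with at least a 2-fold span. All 3 were lowest in sample 4. Over all analysed probe sets, the count with such a span fell from 944 to 457 without sample 4. How many of those 944 were lowest in sample 4 was not counted. Rhoa, a small GTPase, gave 902, 529, 701 and 278 units through its brightest probe set, a 3.25-fold span with an unadjusted p of 0.00949 and an adjusted p of 0.636 (limma). The other two analysed probe sets of Rhoa spanned 1.66-fold and 1.37-fold. Maged1, which binds p75, was the steadiest, with 2847 ± 48.5 units (SD, n = 4). Mapk9, a JNK kinase, gave 352, 266, 197 and 125 units, and its low value was again in sample 4, whose 3′ to 5′ ratios were the highest; their part in these values was not tested.

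**Figure D4:**
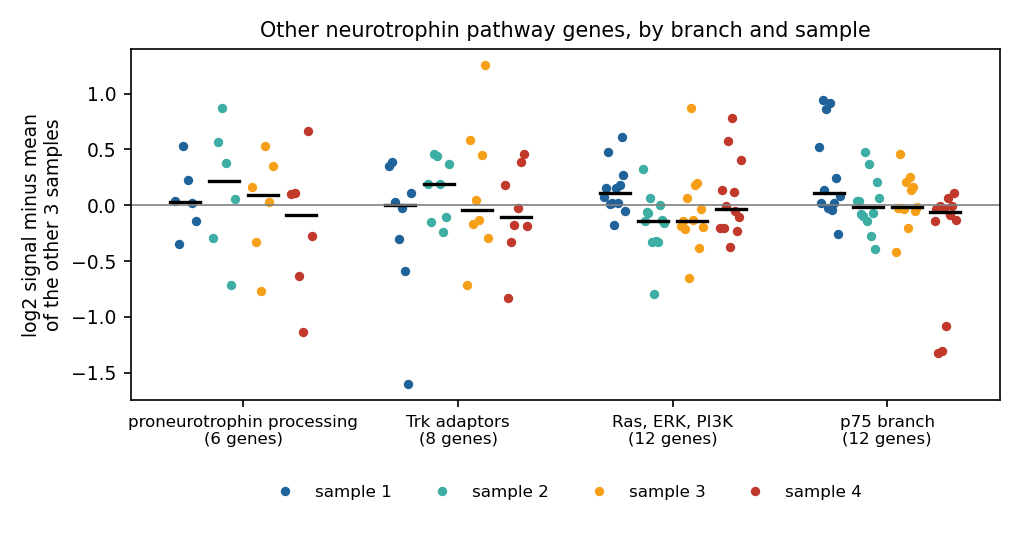
The log2 signal minus the mean of the other 3 samples (vertical axis) for the 38 analysed pathway genes (points), grouped by branch and coloured by sample, with the median of each group as a bar. Medians lie between -0.14 and 0.22, and the lowest points of the p75 branch are Rhoa, Ikbkb and Mapk9 in sample 4.

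The tissue label was set against marker genes. Of 14 genes listed for hippocampal neurons, 12 had a named probe set and 10 of these were analysed. Dsp, a marker of dentate granule cells, gave 316, 375, 199 and 351 units, while Prox1, another granule cell marker, was dim at 64.1, 27.4, 109 and 16.7 units. Camk2a, the kinase gene of excitatory neurons, gave 357, 630, 321 and 29.4 units through its brighter probe set, a 21.4-fold span. Its adjusted p (limma, adjusted p = 0.356) was the lowest of all analysed probe sets, a value that other probe sets shared. Camk2a was thus near the floor in sample 4, where Bdnf was highest, and its other probe set spanned 17.1-fold. Grin2b, an NMDA receptor subunit gene, gave 22.6, 304, 136 and 69.7 units, with its sample 1 value below the floor of 27.7 units. Bdnf was also lowest in sample 1, but the list did not share this. Only 2 of the 12 genes were lowest in sample 1, and 7 had a positive log2 deviation there. Camk2a and Grin2b were picked out after their values had been seen. The other hippocampal neuron genes that were analysed spanned at most 1.99-fold.

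Summed over each list, hippocampal neuron genes gave 4852, 5039, 4724 and 4385 units in samples 1 to 4, lowest in sample 4. Camk2a added 357, 630, 321 and 29.4 units to these sums, and its low value weighed on the sum of sample 4. The 12 genes summed had no shared direction, since 4 were lowest in sample 4 and 3 were highest there. Astrocyte genes, from the other cells known for TrkB, gave 14304, 14211, 15122 and 13539 units. Oligodendrocyte genes gave 7129, 9703, 7029 and 10107 units, highest in sample 4, as Bdnf was. Only 3 of the 6 genes in this sum were highest in sample 4, and Mag was lowest there at 403 units. Choroid plexus genes gave 2955, 1584, 1104 and 2196 units, highest in sample 1, where Bdnf was lowest. This sum holds 3 genes, of which 2 were highest in sample 1. The other, Kl, was highest in sample 4, with 152, 202, 138 and 247 units. A sum is set by its brightest genes, such as Aldoc for astrocytes and Ttr for choroid plexus. The part of tissue makeup in the signals of Bdnf and Ntrk3 was not tested. In whole tissue, fewer cells of a type and less RNA per cell cannot be told apart. Of the basal forebrain cholinergic markers, whose cells are the classic site of Ngfr, 2 of 6 had a named probe set. These were Slc18a3 and Lhx8, and both had a mean below the floor. The samples are labelled hippocampus and not basal forebrain, so these signals give no measure of Ngfr, which was not analysed.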

How the data were processed

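The deposited values are probe set intensities on a linear scale, 1 column per array, for 12422 probe sets and 66 controls; what software and settings the authors used is not given in the sources used here. The deposited values show that the authors had scaled the arrays to a shared level, with a trimmed mean of 250.1 units in each. Neither detection calls nor probe-level data entered, so the number of arrays limits precision and dim signals cannot be told from background.

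After controls were left out, quantile normalization was done across arrays (limma 3.58.1, R 4.3.3). Signals in the text are normalized units before the floor; folds and log2 values use signals raised to a floor, the 25th percentile (27.7 units), which understates changes of dim genes. Analysed probe sets had a mean over 104 units, the median of the means. Variances were tested against the intensity trend (robust, one-sided F test, 3 residual and 5.06 prior degrees of freedom, Benjamini-Hochberg over 6210 probe sets, threshold 0.05). The trend and prior came from limma, and the F test was computed from them with the same prior degrees of freedom for all probe sets. Where limma is named with a p-value, this F test is meant. The procedure was run on simulated data in which unchanged probe sets had the spread of the trend. Real probe sets vary around that trend, so the simulation does not show how many changes the test misses here. Symbols came from the platform annotation (10833 probe sets with 1 symbol, 396 with several, 1193 with none), updated for 10817 through Entrez identifiers to the RefSeq table of GRCm38.p6, which also gave promoters. No protein sequence was used. The text names every member, the pathway's ligands and receptors, the gene with the widest span per branch, genes past the test, the 3 genes of most like pattern per member and the first measured markers of some lists. Other pathway genes were named after their values had been seen. Members and lists were chosen with earlier results of these data known. Alternatives covered normalization, floor, filter, variance prior, the choice of probe set and leaving out each sample.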

Additional observations from a re-analysis of the deposited data

Results flagged for a closer look

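Ntrk2 met a check for a single sample far from the others. On the log2 scale with the floor, the gap between sample 3 and the nearest other sample was the whole range (ratio 1, above Dixon's critical value for 4 samples), because the other 3 samples sat at the floor. Such a check marks about 1 in 20 groups by chance, but that rate does not hold for Ntrk2. With 3 of the 4 values at the floor, the ratio is always 1. Bdnf, with a ratio of 0.542, and Ntrk3, with 0.783 for sample 2, did not meet the check.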

How the results depend on the processing

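The variance test passed 0 member probe sets and 0 pathway genes under every alternative run. The count of members with at least a 2-fold span was 1, and 0 with the deposited signals; with no floor it was also 1, but Ntrk2 in place of Ntrk3; with each sample left out in turn it ranged from 0 to 1. The count for pathway genes was 9, with 14 without the filter on dim probe sets, 5 with the median over the probe sets of a gene, and 2 (without sample 4) to 8 when samples were left out. Bdnf stayed below the other samples in sample 1 and above them in sample 4 under all 6 alternatives that gave these values (-0.72 to -0.52 and 0.37 to 0.67 log2 units), and Ntrk3 stayed below them in sample 2 (-0.93 to -0.76). Small deviations changed sign. For Bdnf these were sample 2 (-0.0226 with median scaling, -0.13 to 0.31 with samples left out) and sample 3 (-0.0066 with deposited signals, -0.0092 with median scaling, -0.24 to 0.21 with samples left out). For Ntrk3 these were sample 1 (-0.14 to 0.37) and sample 4 (-0.064 to 0.44), both with samples left out. The Bdnf span was 1.33-fold without sample 1 and 1.47-fold without sample 4, and the Ntrk3 span 1.17-fold without sample 2. No paired analysis was possible because there is 1 group. Array number and the lack of detection calls limit what can be said of dim probe sets such as Ntrk2.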
